A study of Mus musculus with 6 samples.

Results

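Wnt ligands, their Frizzled receptors and the R-spondins that amplify their signal were followed through RNA sequencing of mouse bone cells, in which 46 genes were found among the 29616 genes of the deposited table. The genes were chosen by name in the GENCODE M21 annotation. They were all numbered Wnt, Fzd and Rspo genes together with the co-receptors Lrp4, Lrp5 and Lrp6, the receptors Ror1, Ror2 and Ryk, the ligand-processing genes Porcn and Wls, the R-spondin receptors Lgr4, Lgr5 and Lgr6, the ubiquitin ligases Znrf3 and Rnf43, and the Dickkopf co-receptors Kremen1 and Kremen2. The rule matched 48 symbols, of which Fzd10 and Rspo1 were not analysed here. C57BL/6 mice (C57BL/6J in the study's methods), the strain of both groups, were dosed from 8 weeks of age with the synthetic glucocorticoid dexamethasone, 0.08 µg per g of body weight each day over 4 weeks, and the controls were saline-treated by the study's legends. Each group had 3 libraries. The labels call the material bone cells, and the study's text describes cells positive for Osteocalcin taken from bones without marrow. Whether a library came from 1 mouse or from several is not given in the sources used here, so the p-values measure only the spread between these samples, part of which may be technical.

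Wnt proteins are secreted lipid-modified signals that bind Frizzled receptors on neighbouring cells. Together with Lrp5 or Lrp6 they stabilise β-catenin, which enters the nucleus and acts with TCF/LEF factors on target genes, while other Wnts act through Ror and Ryk receptors on cell shape and polarity without β-catenin. The ligases Znrf3 and Rnf43 remove Frizzled from the membrane, and R-spondins, bound to Lgr receptors, hold these ligases back. In bone the β-catenin branch is a main driver of osteoblast formation, and inherited changes in LRP5 or in the sclerostin-binding LRP4 alter bone mass.

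The values were normalized counts, that is, reads per gene divided by a size factor of each library, from libraries of 72596611 to 89910728 reads. Genes whose mean over the 6 libraries reached 10 normalized counts were tested with limma on log2(normalized count + 1), which left 17442 genes in all and 32 of the Wnt genes. A gene was called differentially expressed when its adjusted p was under 0.05 and its log2 fold change was at least 1 in either direction. All fold changes below are dexamethasone against control, log2 values being on that log2(normalized count + 1) scale, and adjusted p-values are Benjamini-Hochberg values from limma over all genes tested. Of the 32 tested Wnt genes, 15 were differentially expressed, or 46.9%, where the call was made for 22.3% of all genes tested. In the lower direction 12 Wnt genes were called, against 10.6% of all genes. These were the ligands Wnt10b, Wnt4 and Wnt5a, the acyltransferase Porcn, the receptors Fzd2, Fzd7 and Fzd8, the co-receptor Lrp4, Rspo2, Rspo3 and Rspo4, and the ligase Rnf43. In the higher direction Wnt5b, Lrp5 and Lgr6 were called, 3 genes, against 11.7% of all genes. The adjusted p alone was passed by 28 of the 32, and 72.5% of all genes passed it. The values of the 2 groups did not overlap for 28 of the 32, and this held for 74.7% of all genes. The median log2 fold change of the 32 tested Wnt genes was -0.60, and that of all genes tested was 7.12e-04. Because these cells were sequenced in bulk, fewer cells of a type and less RNA per cell cannot be told apart in any of these values.

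**Figure D1:**
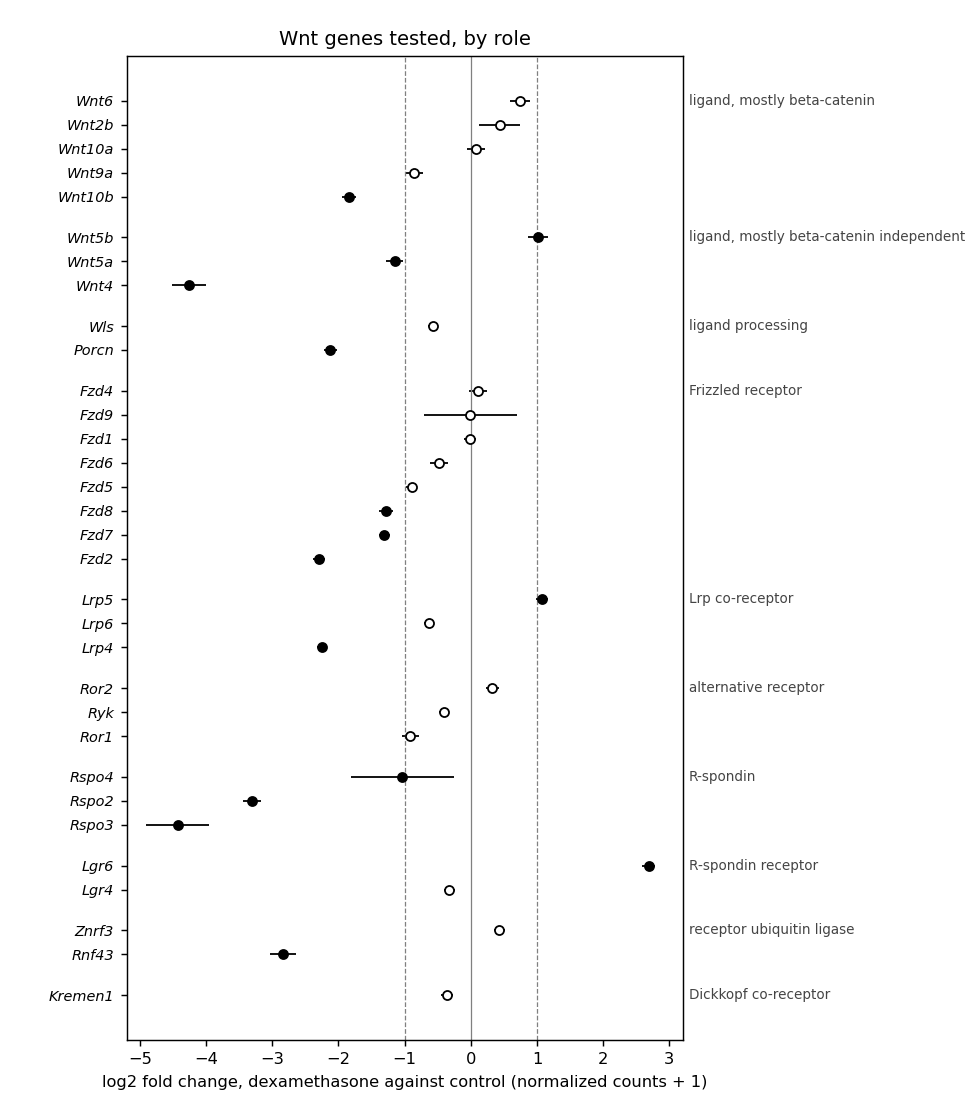
Log2 fold change (dexamethasone minus control) of the 32 tested Wnt genes, grouped by role, with 95% confidence intervals from limma over 3 libraries per group, filled points being called genes and dashed lines the fold cut-offs. The called genes run from Rspo3 at -4.43 to Lgr6 at 2.69, and 12 of the 15 lie on the lower side.

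**Figure D2:**
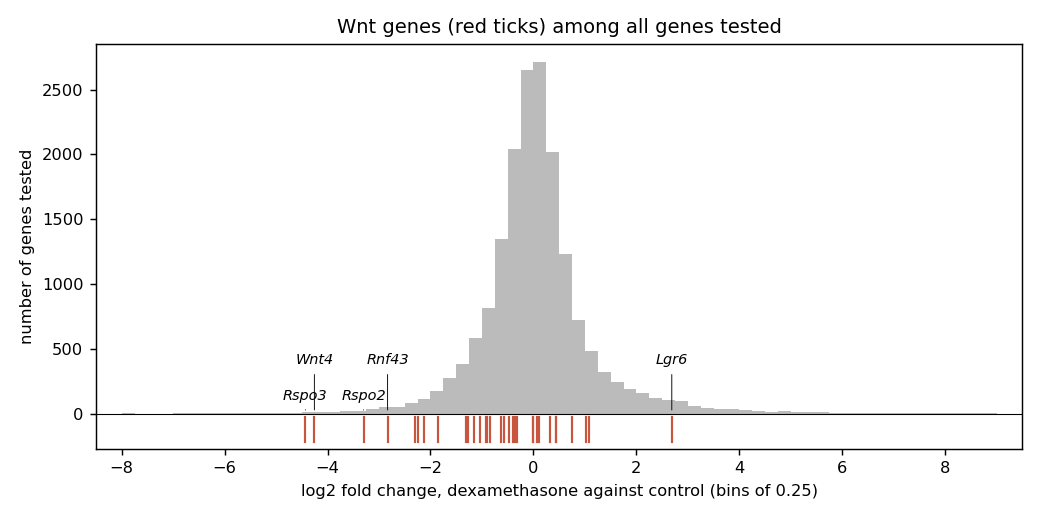
Histogram of the log2 fold changes of all 17442 genes tested, in bins of 0.25 (horizontal axis, log2 fold change; vertical axis, number of genes), with a red tick for each of the 32 tested Wnt genes. Rspo3, Wnt4 and Rspo2 lie in the lowest percent of all genes, and Lgr6 lies at percentile 97.5.

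Promoter windows from RefSeq (GRCm38.p6, 250 bases before to 50 after each start) were held for 31 of the 48 symbols, in 35 windows. For 19 of the 32 tested Wnt genes there was at least 1 window, and for 13 there was none, among them Rspo2, Rspo3, Lrp4, Lrp5 and Porcn. The 250 bases before the start are shown for 3 genes that fell with dexamethasone and for Lgr6, which rose, so that their base composition can be read beside their changes. Capitals mark CpG dinucleotides, the site of DNA methylation, and each sequence runs 5′ to 3′ on the strand of its gene.
Wnt4, chr4:137277385-137277634, plus strand: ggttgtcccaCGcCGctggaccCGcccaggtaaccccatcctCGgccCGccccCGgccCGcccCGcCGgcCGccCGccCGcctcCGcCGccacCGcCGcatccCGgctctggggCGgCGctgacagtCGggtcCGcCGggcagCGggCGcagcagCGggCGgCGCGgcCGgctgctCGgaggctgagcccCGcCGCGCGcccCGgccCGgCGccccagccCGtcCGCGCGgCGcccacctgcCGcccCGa
Wnt10b, chr15:98778151-98778400, minus strand: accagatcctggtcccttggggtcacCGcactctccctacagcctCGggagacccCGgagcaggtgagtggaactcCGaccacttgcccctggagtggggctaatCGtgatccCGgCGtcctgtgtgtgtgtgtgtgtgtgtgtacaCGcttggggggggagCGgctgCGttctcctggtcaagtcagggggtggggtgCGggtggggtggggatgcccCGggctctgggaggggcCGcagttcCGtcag
Rnf43, chr11:87662837-87663086, plus strand: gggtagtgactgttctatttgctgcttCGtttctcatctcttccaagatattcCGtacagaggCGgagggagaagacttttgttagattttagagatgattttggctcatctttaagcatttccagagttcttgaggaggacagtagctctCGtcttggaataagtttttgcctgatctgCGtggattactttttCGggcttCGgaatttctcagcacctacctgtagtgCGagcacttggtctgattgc
Lgr6, chr1:135105277-135105526, minus strand: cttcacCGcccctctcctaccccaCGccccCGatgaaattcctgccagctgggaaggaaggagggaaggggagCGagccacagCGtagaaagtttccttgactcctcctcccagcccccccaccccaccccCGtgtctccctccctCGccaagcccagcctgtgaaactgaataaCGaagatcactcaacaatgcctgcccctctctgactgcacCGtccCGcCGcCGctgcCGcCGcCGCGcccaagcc
The Wnt4 sequence held 44 CpG dinucleotides, Lgr6 held 16, Wnt10b held 14 and the Rnf43 sequence, taken from the first of its 2 windows, held 8. The genes that fell thus included both the densest and the sparsest of the 4. Over the full 300-base windows, the 22 windows of the tested Wnt genes had a median of 27.5 CpG dinucleotides and 67.7% G and C, and the 13041 windows of all tested protein-coding genes had 20 and 60.3%. Each motif was searched on both strands, and the short ones can overlap the longer one at its ends. The palindromic glucocorticoid response element GNACANNNTGTNC, the site class bound by the glucocorticoid receptor, matched none of the 35 windows, and 0.475% of all promoter windows. The TCF/LEF core CTTTGA matched 4 of the 35, or 11.4%, against 16% of all windows, in Fzd1, Ror1, Wnt11 and Wnt5b. The RUNX core TGTGGT matched 1, in Ror1, or 2.86%, against 16.8% of all windows. The windows of all genes, against which these motif rates are set, had a median of 7 CpG dinucleotides and 52.7% G and C. The 35 windows had 27 and 67.7%, so the rates compare windows of unlike composition. The 35 also include windows of genes that were not tested. A match or its absence describes letters in these windows only.

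Among the ligands that act mostly through β-catenin, Wnt10b, which promotes osteoblast formation over fat cell formation, was the most abundant and fell. Wnt10b had 2965, 3056 and 3076 normalized counts in the control libraries and 884, 860 and 787 in the dexamethasone libraries, a 3.59-fold lower mean (log2 fold change -1.85, SE 0.0501, limma adjusted p = 1.03e-20). Every dexamethasone library lay below every control library, and the spread within either group was small beside the gap. Wnt9a, which takes part in joint and skull formation, was also lower (1299 ± 105 in controls, 718 ± 43.4 with dexamethasone, SD, n = 3 each) but its log2 fold change of -0.85 was under the cut-off. Wnt6, a ligand of epithelia and somites, was higher, at 458 ± 32.3 in controls and 767 ± 58.3 with dexamethasone (SD, n = 3 each), with a log2 fold change of 0.74 that was also under the cut-off. Wnt10a, a ligand of tooth and hair development, had overlapping groups of 674 ± 25.9 and 712 ± 47.2 (SD, n = 3 each), and the 95% confidence interval of its log2 fold change ran from -0.06 to 0.21. Wnt2b had the fewest reads of those tested here, 81.7 ± 6.93 in controls and 111 ± 9.48 with dexamethasone (SD, n = 3 each), with a log2 fold change of 0.44. Ligands of 1 class therefore differed in direction.

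The other 10 ligands of this class did not reach the filter. Wnt1 had 4 to 13 reads in the control libraries and 3 to 7 in the dexamethasone libraries, and Wnt8b had 9 to 20 and 4 to 7, its mean of 9.75 normalized counts being just under the limit. Wnt7a had at most 4 reads in any library, and Wnt2, Wnt3, Wnt3a, Wnt7b, Wnt8a and Wnt9b had 3 or fewer in each. Wnt16, a ligand known for its part in cortical bone, had 0 to 5 reads. The reads of Wnt8b did not overlap between the groups, but the gene was not tested. For a ligand at 0 in a library up to 3 reads are allowed, counting error only, so a difference between the groups was not detectable at this depth for the 6 ligands with 3 or fewer reads. Wnt3a and Wnt1, the ligands most used to activate β-catenin in the laboratory, were thus at or near 0 in both groups.

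All 3 tested ligands of the mostly β-catenin-independent class were called, in different directions, where 22.3% of all genes were called. Wnt4, which can use either branch, had 1535, 1703 and 1584 normalized counts in controls and 88.7, 61.0 and 106 with dexamethasone, an 18.9-fold lower mean (log2 fold change -4.26, SE 0.125, limma adjusted p = 5.55e-20). This was the deepest fall of any tested ligand. Wnt5a, the main ligand of Ror2, had 1025, 998 and 1065 in controls and 451, 475 and 466 with dexamethasone, 2.22-fold lower (log2 fold change -1.15, SE 0.0619, limma adjusted p = 1.64e-14). Wnt5b, its close relative, moved the other way, from 362, 354 and 351 to 783, 649 and 735, or 2.03-fold higher (log2 fold change 1.02, SE 0.0761, limma adjusted p = 1.10e-11). The groups overlapped for none of the 3 genes, nor for 74.7% of all genes tested. Without dexamethasone replicate 1, the highest Wnt5b library, its log2 fold change was 0.96 and under the cut-off, and other settings that took it under are listed in the closing section. In the annotation 4.58% of the Wnt5a exon bases overlap the antisense gene Gm2670, and the strand setting of the count is not given in the sources used here. Wnt11, the other ligand of this class, had 1 to 6 reads in controls and 1 to 5 with dexamethasone.

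**Figure D3:**
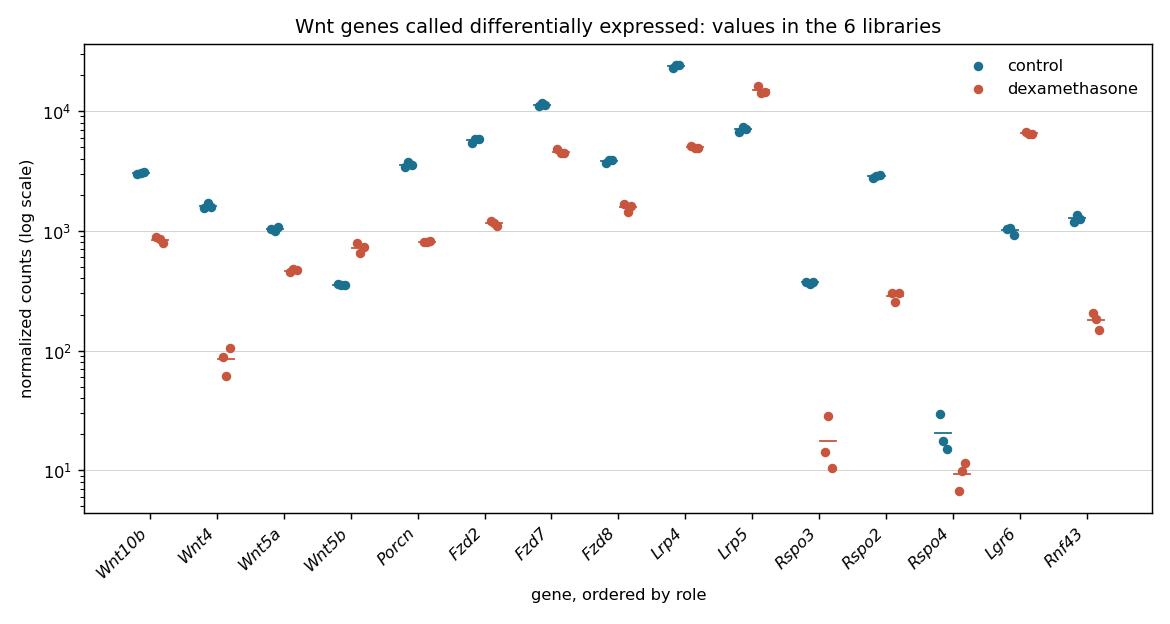
Normalized counts (log10 axis) of the 15 called Wnt genes in the 3 control and 3 dexamethasone libraries, 1 point per library, with the group means. The groups do not overlap for any of these 15 genes, which were picked by their call, nor for 74.7% of all genes tested. Rspo4 comes closest, with a lowest control library of 14.9 and a highest dexamethasone library of 11.6.

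Compared per kilobase of exon, the scale on which genes of different length can be set side by side, the leading ligand changed. In controls Wnt10b stood first at 892 ± 17.3 normalized counts per kb (SD, n = 3), followed by Wnt9a at 390 ± 31.6 and Wnt4 at 383 ± 20.6, which did not differ beyond their spread. Wnt10a, Wnt6, Wnt5b, Wnt5a and Wnt2b followed in that order, with Wnt5b at 134 ± 2.13 and Wnt5a at 132 ± 4.30 overlapping. With dexamethasone Wnt6 stood first at 350 ± 26.6, then Wnt10a at 288 ± 19.1, Wnt5b at 272 ± 25.7 and Wnt10b at 248 ± 14.9 per kb (SD, n = 3 each). Wnt5b overlapped both of its neighbours in that order, whereas Wnt6 lay above the others in every library. Wnt4 went from the third place to the last of the 8 tested ligands, at 20.3 ± 5.39 per kb, where its range overlapped that of Wnt2b at 26.5 ± 2.26. The levels of the 19 ligands summed to 2443 ± 71.0 per kb in controls and 1488 ± 81.7 with dexamethasone (SD, n = 3 each), 1.64-fold lower. Of that sum Wnt10b took 36.5% in controls and 16.7% with dexamethasone, and Wnt4 took 15.7% and 1.359%. The share of Wnt6 went from 8.55% to 23.5%, that of Wnt5b from 5.49% to 18.3% and that of Wnt10a from 11.2% to 19.4%. Taking the longest transcript as length gave dexamethasone shares of 22.9% for Wnt6, 19.3% for Wnt10b, 18.8% for Wnt5b and 17.8% for Wnt10a. The order behind Wnt6 thus depended on the length used. A share is a description of the mixture, and the share of Wnt10a was higher while its own level was 273 ± 10.5 and 288 ± 19.1 per kb.

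**Figure D4:**
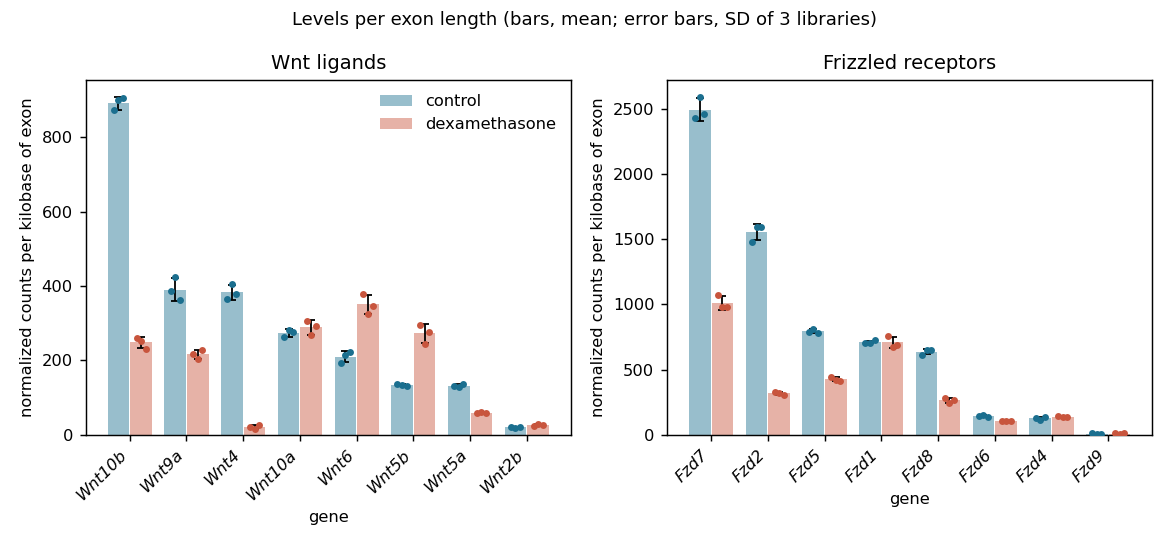
Level in normalized counts per kb of exon of the 8 tested ligands and the 8 tested Frizzled receptors, as bars for the group means with SD over 3 libraries and a point for each library. Wnt10b and Fzd7 lead their families in controls at 892 and 2493 per kb, and Wnt6 at 350 and Fzd7 at 1009 per kb lead them with dexamethasone.

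Both genes that prepare the ligands for secretion were lower, and 1 was called, where 22.3% of all genes were called. Porcn, the membrane enzyme that attaches the fatty acid a Wnt protein needs to bind Frizzled, had 3410, 3720 and 3519 normalized counts in controls and 807, 808 and 822 with dexamethasone. The mean was 4.37-fold lower (log2 fold change -2.13, SE 0.0469, limma adjusted p = 1.41e-22), and the dexamethasone libraries were nearly equal. Wls, the carrier that brings the finished ligand to the cell surface, had 30964 ± 1029 in controls and 20782 ± 329 with dexamethasone (SD, n = 3 each). Its log2 fold change was -0.57, under the cut-off, with groups that did not overlap, as for 74.7% of all genes tested.

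Of the 8 tested Frizzled receptors, 3 were called lower and none was called higher, 37.5% beside the 22.3% of all genes. By the adjusted p alone 5 were lower, as were 6148 of all 17442 genes tested. Fzd2, a receptor that also binds Wnt5a, had 5430, 5831 and 5826 normalized counts in controls and 1207, 1169 and 1105 with dexamethasone, 4.91-fold lower (log2 fold change -2.30, SE 0.0448, limma adjusted p = 1.20e-23). Fzd7, the most abundant Frizzled, had 10997, 11758 and 11145 in controls and 4844, 4433 and 4442 with dexamethasone, 2.47-fold lower (log2 fold change -1.31, SE 0.040, limma adjusted p = 1.31e-19). Fzd8 had 3659, 3887 and 3889 in controls and 1685, 1443 and 1596 with dexamethasone, 2.42-fold lower (log2 fold change -1.28, SE 0.0499, limma adjusted p = 2.04e-17). In each of the 3 the groups lay far apart beside the spread within them.

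The remaining Frizzled receptors ranged from lower to nearly equal. Fzd5 had 5485 ± 109 in controls and 2953 ± 114 with dexamethasone (SD, n = 3 each), and its log2 fold change of -0.89 was under the cut-off in the main scaling but not in 2 others. Of its exon bases, 17.8% overlap the antisense gene Gm38058. Fzd6 had 698 ± 22.2 and 502 ± 19.6 (SD, n = 3 each), a log2 fold change of -0.47, with 3.16% of its exon bases overlapping Gm26704. Fzd1 had 2989 ± 40.4 and 2972 ± 182 (SD, n = 3 each), and the 95% confidence interval of its log2 fold change ran from -0.10 to 0.08. Fzd4, the receptor that also binds norrin in vessels, had 850 ± 77.0 and 915 ± 28.1 (SD, n = 3 each) with an interval from -0.02 to 0.24. Fzd9, which takes part in bone formation, had only 20.4 ± 7.67 and 20.1 ± 6.05 (SD, n = 3 each), and its interval from -0.71 to 0.70 leaves a change of either sign possible. Fzd3 had at most 2 reads in any library.

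Per kb of exon, the 9 Frizzled genes in the table summed to 6472 ± 160 in controls and 2973 ± 142 with dexamethasone (SD, n = 3 each), 2.18-fold lower. The order in controls was Fzd7 at 2493 per kb, Fzd2 at 1555, Fzd5 at 793, Fzd1 at 712 and Fzd8 at 638. With dexamethasone Fzd7 stayed first at 1009 per kb, Fzd1 came next at 708, and Fzd2 stood at 317, below Fzd5 at 427. Fzd1 thus went from 11.01% of the summed Frizzled level to 23.8%, and Fzd2 from 24.0% to 10.7%, while the share of Fzd7 was 38.5% and 33.9%.

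The 3 low-density-lipoprotein receptor-related proteins that act at the Wnt receptor changed in opposite directions. Lrp4, which presents the Wnt antagonist sclerostin on bone cells, had 22705, 24060 and 24002 normalized counts in controls and 5145, 4867 and 4919 with dexamethasone, 4.74-fold lower (log2 fold change -2.24, SE 0.0365, limma adjusted p = 3.23e-25). Lrp5, whose loss causes low bone mass, rose from 6718, 7416 and 7034 to 16042, 14198 and 14421, or 2.11-fold (log2 fold change 1.08, SE 0.0438, limma adjusted p = 4.94e-17). Lrp6, the co-receptor most cells rely on, had 32077 ± 544 in controls and 20674 ± 845 with dexamethasone (SD, n = 3 each), with a log2 fold change of -0.63, under the cut-off. None of the 3 had overlapping groups, nor did 74.7% of all genes tested. Per kb of exon, Lrp6 (2346 ± 39.8) and Lrp4 (2246 ± 73.0) led in controls and Lrp5 stood at 725 ± 35.9 (SD, n = 3 each). With dexamethasone Lrp5 at 1529 ± 103 and Lrp6 at 1512 ± 61.8 per kb overlapped, and Lrp4 stood at 474 ± 14.1 (SD, n = 3 each). These levels depend on the length used, here all exon bases of a gene: 13672 for Lrp6, 10504 for Lrp4 and 9738 for Lrp5. Their longest transcripts have 9368, 7926 and 8893 bases, and the levels were not recomputed with these. Lrp5 was under the fold cut-off, at 0.96 and 0.86 on the log2 scale, when libraries were rescaled to the same total or quantile-normalized.

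The alternative receptors had no call. Ror1, a tyrosine kinase-like receptor for Wnt5a, had 1362 ± 47.8 in controls and 724 ± 57.4 with dexamethasone (SD, n = 3 each), a log2 fold change of -0.91. Its relative Ror2 was on the other side, at 1958 ± 105 and 2454 ± 145 (SD, n = 3 each), with a log2 fold change of 0.32. Ryk, a receptor with an inactive kinase domain, had 9779 ± 202 and 7377 ± 235 (SD, n = 3 each), with a log2 fold change of -0.41. All 3 passed the adjusted p alone and had groups that did not overlap, as did 72.5% and 74.7% of all genes.

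The R-spondins, secreted proteins that raise the amount of Frizzled at the cell surface, all fell, and the 2 that carried most of the reads fell furthest. Rspo2, which is needed for limb and lung growth, had 2761, 2857 and 2898 normalized counts in controls and 304, 255 and 305 with dexamethasone, 9.86-fold lower (log2 fold change -3.30, SE 0.0654, limma adjusted p = 1.58e-23). Rspo3, which is tied to bone density and vessel growth, had 375, 362 and 376 in controls and 14.3, 28.3 and 10.5 with dexamethasone, 20.97-fold lower (log2 fold change -4.43, SE 0.229, limma adjusted p = 6.95e-15). These last values rest on 9 to 26 reads per library, and 13.1% of the Rspo3 exon bases overlap the antisense gene Gm48159. Rspo4, known for nail growth, had 29.4, 17.6 and 14.9 in controls and 6.68, 9.81 and 11.6 with dexamethasone (log2 fold change -1.03, SE 0.377, limma adjusted p = 0.0170). Its groups lay close together, and control replicate 1 held the highest value. Without that library its limma adjusted p was 0.134, without dexamethasone replicate 1 it was 0.0589, and over all alternatives that gave a value it ranged from 0.00855 to 0.134. Per kb of exon, the R-spondins summed to 684 ± 10.5 in controls and 66.0 ± 2.48 with dexamethasone (SD, n = 3 each), 10.4-fold lower. Rspo2 took 81.2% of that sum in controls and 85.2% with dexamethasone, and Rspo3 took 17.6% and 8.80%.

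Among the R-spondin receptors Lgr6 rose and was the most increased of the tested Wnt genes. Lgr6, also a marker of osteoprogenitor and skin stem cells, had 1030, 1065 and 928 normalized counts in controls and 6652, 6377 and 6432 with dexamethasone, 6.44-fold higher (log2 fold change 2.69, SE 0.0474, limma adjusted p = 1.57e-24). Lgr4, the widely expressed receptor of the family, had 3971 ± 126 and 3167 ± 84.4 (SD, n = 3 each), with a log2 fold change of -0.33 under the cut-off. Per kb of exon, Lgr4 was the higher in controls, at 675 ± 21.5 against 147 ± 10.4 for Lgr6. With dexamethasone Lgr6 was the higher, at 947 ± 21.2 against 538 ± 14.3 (SD, n = 3 each). Lgr5, the intestinal stem cell marker, had 1 to 4 reads in every library.

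The 2 receptor ligases, themselves target genes of β-catenin in many tissues, were on opposite sides. Rnf43 had 1193, 1366 and 1259 normalized counts in controls and 205, 184 and 148 with dexamethasone, 7.11-fold lower (log2 fold change -2.83, SE 0.0937, limma adjusted p = 6.40e-19). Znrf3 had 2420 ± 67.6 and 3271 ± 152 (SD, n = 3 each), with a log2 fold change of 0.43 under the cut-off. Both had groups that did not overlap, as did 74.7% of all genes tested. Kremen1, which removes Lrp6 from the surface together with Dickkopf proteins, had 13332 ± 635 and 10412 ± 576 (SD, n = 3 each), with a log2 fold change of -0.36. Kremen2 had at most 4 reads in any library.

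The other genes of the pathway were read from 4 lists by function. Of the 5 tested secreted antagonists, 3 were called lower and 1 higher, 80% beside the 22.3% of all genes, with a median log2 fold change of -1.44. Sfrp2, which binds Wnt proteins outside the cell, was 5.44-fold lower (log2 fold change -2.44, limma adjusted p = 3.11e-24). Wif1, which does the same, was 3.32-fold higher (1.73, limma adjusted p = 2.88e-15). Dkk2, an inhibitor of Lrp5 and Lrp6, was called lower, with 48 to 54 reads in the control libraries and 1 to 2 in the dexamethasone libraries. The uncalled gene was Dkk3, the most abundant of the 5, at 39446 ± 1827 normalized counts in controls and 19840 ± 1016 with dexamethasone (SD, n = 3 each). Its log2 fold change of -0.99 lay just under the cut-off in the main scaling. It was beyond the cut-off with the same total (-1.11) and with quantile normalization (-1.13). The called antagonists thus changed in both directions, as the ligands did. Dkk1 and Sost, the antagonists best known in bone, were not analysed here.

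Of the 33 genes of β-catenin signalling inside the cell, all tested, 6 were called lower and none was called higher at the fold cut-off, with a median log2 fold change of 0.05. By the adjusted p alone 16 were higher and 14 lower, where 72.5% of all genes passed it. The 3 most abundant of the called genes were Bcl9l, a β-catenin co-activator (-1.10), and the TCF factors Tcf7l2 (-1.003) and Tcf7 (-1.10). The 18.2% called in this list was below the 22.3% of all genes tested. Of 15 tested genes listed as β-catenin targets, 8 were called lower and 2 higher, 66.7% beside the 22.3% of all genes, with a median of -1.10. By the adjusted p alone 9 were lower and 6 higher, beside the same 72.5% of all genes. Among them the matricellular genes Ccn4 and Ccn5 were lower by log2 fold changes of -2.48 and -1.70, and the receptor Tnfrsf19 was lower by -3.52. The called genes that were higher were Fosl1, an AP-1 transcription factor, at a log2 fold change of 4.56, and Apcdd1, a Wnt inhibitor at the membrane, at 2.29. This list shares Rnf43, Znrf3 and Lgr5 with the Wnt genes above, and shares Axin2, Tcf7 and Lef1 with the signalling list. It also shares Notum and Dkk1, neither of which was tested, with the antagonist list. Of 19 tested planar cell polarity genes, which direct cell orientation, 4 were called lower and 1 higher, with a median of -0.28. Daam2, a formin that links Dishevelled to actin, had a log2 fold change of -1.51, and the Dishevelled-binding genes Dact3 and Dact1 had -1.04 and -2.93. The share called in it was 26.3%, near that of all genes.

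**Figure D5:**
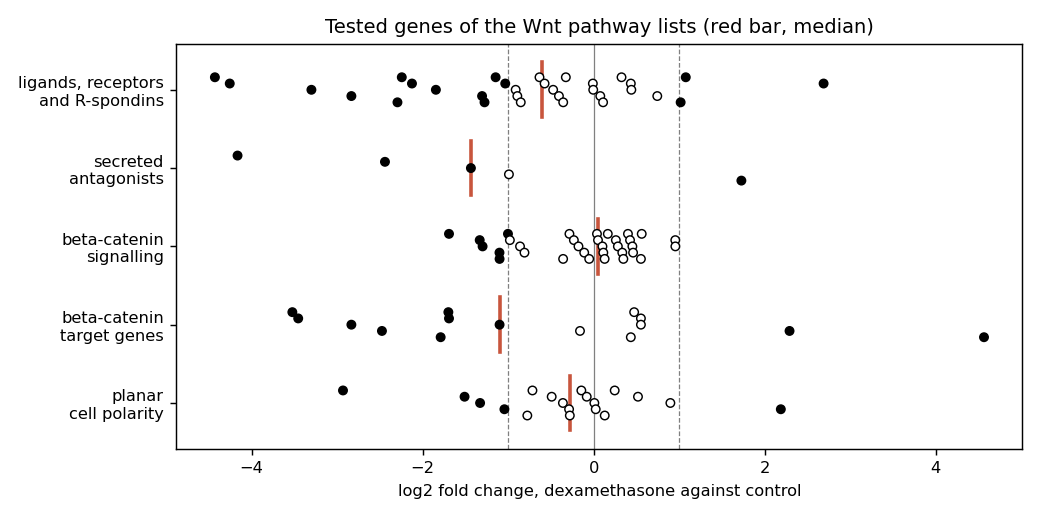
Log2 fold change (dexamethasone minus control) of every tested gene in the Wnt gene set and in the 4 lists of other pathway genes, 1 point per gene, filled where called, with red bars at the list medians and dashed lines at the fold cut-offs. Medians are -0.60 for the Wnt genes, -1.44 for secreted antagonists, 0.05 for β-catenin signalling, -1.10 for β-catenin targets and -0.28 for planar cell polarity.

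The labelled material was checked against marker lists. Beside the counts of calls below, 22.3% of all genes tested were called, 11.7% higher and 10.6% lower. All 11 osteoblast markers were tested, and 9 were called lower and 1 higher. Of the Osteocalcin genes on the list, Bglap had 98.2 to 122 normalized counts in controls and 9.54 to 15.1 with dexamethasone. Bglap2 had 300 to 339 and 29.6 to 33.7. The marker called higher was Spp1, which encodes osteopontin, at 33595 ± 988 in controls and 1279674 ± 29570 with dexamethasone (SD, n = 3 each). The 11 markers summed to 2285151 to 2423670 normalized counts in controls and 2115550 to 2255326 with dexamethasone, and the 10 without Spp1 summed to 2252682 to 2389667 and 864997 to 964076. Markers of other cells were read in the same way. The share called was 20% in the endothelial list and 25% in the osteocyte list, near that of all genes. It was 0% in the osteoclast list, with 1 gene tested. In the other lists it was 42.9% to 100%, of 2 to 7 tested genes. The 6 listed smooth and skeletal muscle genes in the table summed to 141405 to 148990 normalized counts in controls and 12605 to 13634 with dexamethasone, most of it Acta2, with 2 of 4 tested genes lower. The 7 hematopoietic genes summed to 100 to 137 and 782 to 831, with 2 of 4 tested genes higher and 2 lower, and their defining gene Ptprc had 2 to 5 reads. The 6 adipocyte genes summed to 28.4 to 36.0 and 1437 to 1545, with 1 of 2 tested genes higher, Fabp4, which made up most of the dexamethasone sum. The other tested gene, Pparg, had 21.8 ± 4.14 and 21.6 ± 2.99 (SD, n = 3 each). Adipoq, Plin1, Cidec and Lep had at most 9 reads in any library. The 7 chondrocyte genes summed to 1919 to 1959 and 5596 to 6325, most of it Col2a1, with Col2a1 higher and the other tested gene lower. The 4 osteocyte genes summed to 8220 to 8760 and 18449 to 19774, with 1 of 4 tested genes higher, Dmp1. The 7 marrow stroma and pericyte genes summed to 38361 to 40659 and 53356 to 56596, with 2 of 7 tested genes higher and 1 lower. Of these, Kitl had 1949 ± 15.3 and 14444 ± 79.2 (SD, n = 3 each), and Pdgfrb, the most abundant, had overlapping groups. The 5 fibroblast and tendon genes summed to 167418 to 179206 and 72004 to 78293, most of it Fmod, with 2 of 4 tested genes lower. The 5 osteoclast genes summed to 12872 to 13490 and 8176 to 8603, with no call in the 1 gene tested, Ctsk, which made up most of both sums. Of those under the filter, Acp5 had 0 reads in every control library and 7 to 26 with dexamethasone. Ocstamp had 0 to 6 and 6 to 20, Oscar 3 to 14 and 6 to 12, and Calcr 0 to 4 and 0 to 1. The 8 endothelial genes summed to 389 to 426 and 487 to 523, with 1 of 5 tested genes higher, Esam, and Cdh5 at 0 to 2 reads. Most of both endothelial sums was Kdr, which was not called, at 348 ± 17.3 and 414 ± 20.0 (SD, n = 3 each). These are differences in marker genes, and their part in the changes of the Wnt genes was not tested.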

How the data were processed

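RNA sequencing of 3 control and 3 dexamethasone libraries was analysed. The authors aligned and counted reads per gene with STAR (2.7.10a, GRCm39 in the submitters' processing notes) and normalized them with DESeq2. The deposited values are this normalized signal, counts divided by a size factor per library. The annotation release and strand setting are not given in the sources used here. Every value was a whole multiple of 1 read (relative tolerance 1e-06), so reads were recovered for 100% of values. Libraries were prepared with a stranded mRNA kit. No column was left out.

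Symbols and exon lengths came from GENCODE M21, and promoter windows from RefSeq, both of GRCm38, so no other coordinates are given. Genes whose mean reached 10 normalized counts were tested with limma 3.58.1 (R 4.3.3) on log2(normalized count + 1), with a mean-variance trend, no covariate and Benjamini-Hochberg adjustment over all genes tested. The added 1 makes fold changes of low genes smaller than their ratios, and folds in the text are ratios of group means. Calls needed an adjusted p under 0.05 together with a log2 fold change of 1 or more, up or down. With 3 libraries against 3, an exact two-sided permutation test of 1 gene cannot go below 0.1. The limma script was tested on simulated data. Replicates differed by more than sampling noise (chi-square per degree of freedom 3.56 to 28.9). The limit of 3 reads for a count of 0 covers counting error only.

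The Wnt genes, the pathway lists and the marker lists were chosen with earlier results of these data known. Named with every library were all called Wnt genes. Named by group means were the 3 most abundant uncalled genes of each role, and of each pathway list the 3 most abundant called genes. Wnt2b, Fzd6 and Fzd9 fall outside this rule and are given so that every tested gene is accounted for, and Dkk3, Fosl1, Apcdd1 and the marker genes named were picked after their values were seen. Alternatives were pseudocounts of 0.5 and 5, other filters, scaling to the same total, TMM, quantile normalization, the recovered reads in DESeq2 1.42.0 and in edgeR 4.0.16, a limma fit with no trend, a block for the replicate number, the adjusted p alone, the longest transcript as gene length, and leaving out each library.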

Additional observations from a re-analysis of the deposited data

How the results depend on the processing

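The count of called Wnt genes was 13 to 15 under every alternative except the adjusted p alone, which gave 28, and it was 13 to 15 when 1 library was left out. Of the 15 called genes, 12 kept their direction and their call under every alternative run, edgeR and DESeq2 included. Rspo4 fell below the cut-offs with a pseudocount of 5 (-0.81), quantile normalization (-0.95) and without control replicate 1 (-0.76) or dexamethasone replicate 1 (-0.83), and it gave no value under the 2 stricter filters. Wnt5b fell below the fold cut-off with the same total (0.90), TMM (0.99), edgeR (0.997) and without dexamethasone replicate 1 (0.96), and Lrp5 with the same total (0.96) and quantile normalization (0.86). Fzd5 and Ror1 passed it with the same total (-1.01 and -1.03) and quantile normalization (-1.08 and -1.02). Scaling to the same total moved the median of all genes to -0.11.

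Genes near 0 changed sign. Fzd4 was -0.0045 and Wnt10a was -0.037 with the same total, and Fzd9 was 0.088 with quantile normalization. With 1 library left out, Fzd1 ranged from -0.060 to 0.022 and Fzd9 from -0.27 to 0.26. The longest transcript as gene length gave control and dexamethasone shares of 41.1% and 19.3% for Wnt10b, 14.4% and 13.4% for Wnt9a, 10.04% and 17.8% for Wnt10a, and 0.907% and 2.08% for Wnt2b, with Wnt4 at 14.1% in controls and Wnt6 at 22.9% with dexamethasone. Over all genes 2170 were called with a mean of at least 100, where fewer genes are tested, and 12645 by the adjusted p alone. On the recovered reads edgeR called 3944 genes and DESeq2 3870. Of the lists added after the data were seen, secreted antagonists had 2 to 6 calls over all alternatives, with 2 under either stricter filter. The adjusted p alone gave 30 for β-catenin signalling and 12 for planar cell polarity. The cause of these shifts was not tested beyond what the settings themselves change.

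The sources used here do not say that the replicate numbers mark a pairing. Same-numbered deviations had correlations of -0.10, -0.10 and -0.020, which cannot exclude a shared litter, day or batch. With the replicate number as a block 15 Wnt genes were called, the same 15, and 3897 of all genes. Depth limits the 14 genes under the filter, of which 7 had at most 3 reads in every library.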
